A study of Mus musculus with 111 samples.

Results

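The muscles described here are the gastrocnemius muscles of the uncast legs of mice whose other hindlimb was immobilised in a cast, set against the muscles of naive mice. They comprised 26 left muscles, taken at day 2 (9 animals), day 7 (8 animals) and day 14 (9 animals) of casting of the right hindlimb, and 7 right muscles of naive mice at day 0. These 33 arrays were chosen by label from the 111 arrays of the series, and each came from a different animal. All animals were male C57BL/6 mice. The casting animals were 8 weeks old per the series' design text, the cast immobilised only the right leg, and the left leg served the study as the untreated control. Naive mice received no manipulation. As a further reference, 15 right muscles of sham-operated mice were used, 7 at day 7 and 8 at day 14, in which the Achilles tendon was isolated and handled but not cut. The question answered by the comparison is how far the uncast leg of a cast animal resembles the muscle of an animal that was never cast.

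The design sets limits that apply to every value against naive. The casting animals carried numbers of their own, apart from the numbers shared by the sham and naive animals, so they formed a separate cohort. Every uncast muscle was a left muscle and every naive or sham muscle a right muscle. Cohort, side of the body and the presence of a cast on the other leg therefore cannot be told apart in these comparisons. Comparisons between days within the uncast legs involve 1 cohort and 1 side. P-values measure the spread between the muscles of different animals, and the number of arrays limits their precision.

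The gastrocnemius is a calf muscle made mostly of fast, glycolytic fibres, with connective tissue, vessels, nerve and resident macrophages between them. When a hindlimb is immobilised the free leg goes on bearing weight, and muscle that is newly loaded or stressed is known to switch on immediate early genes, stress proteins and genes of the extracellular matrix. Muscle also runs a circadian clock, in which Bmal1 and its partners drive the period genes and the output factor Dbp in a daily cycle.

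Signals are linear array intensities scaled by the authors to a trimmed mean close to 100, and differences are on the log2(signal + 3.984) scale, which understates the change of dim genes. A gene was called when limma's moderated test, adjusted by Benjamini and Hochberg's method over all 16029 tested genes, gave a value under 0.05. All arrays had the profile of skeletal muscle. Acta1, the actin of skeletal muscle fibres, had signals of 5021 to 15800 in uncast and 15600 to 19500 in naive muscle, and Ckm, muscle creatine kinase, signals of 4891 to 16000 and 15200 to 19700. Pairs of uncast or naive arrays correlated at 0.9487 to 0.9829, and no arrays were identical. The ratio of the 3 prime to the 5 prime probe set of beta-actin, a measure of RNA integrity and labelling, moved with the comparison. Its log2 value was −1.19 ± 0.08 (SD, n = 7) in naive muscle, −0.73 ± 0.31 (n = 9), −0.49 ± 0.24 (n = 8) and −0.33 ± 0.17 (n = 9) in uncast muscle at days 2, 7 and 14, and −1.27 ± 0.2 (n = 7) and −1.12 ± 0.25 (n = 8) in sham muscle at days 7 and 14. The same ratio of Gapdh also moved with the comparison, over a smaller range. It was −0.19 ± 0.05 in naive muscle and −0.28 ± 0.03, −0.28 ± 0.02 and −0.29 ± 0.02 in uncast muscle at days 2, 7 and 14. In sham muscle it was −0.18 ± 0.02 at day 7 and −0.21 ± 0.03 at day 14. In bulk muscle, fewer cells of a type and less RNA per cell cannot be told apart.

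About 1 gene in 3 differed between the uncast legs and naive muscle. Averaged over the days, 5227 of 16029 genes were called (32.6%), of which 3191 were higher (19.9%) and 2036 lower (12.7%) in the uncast legs. At day 2, 4478 genes were called (27.9%), at day 7, 3696 (23.1%), and at day 14, 4408 (27.5%). The day 2 calls comprised 2663 higher (16.6%) and 1815 lower genes (11.3%), those of day 7 2183 (13.6%) and 1513 (9.44%), and those of day 14 2586 (16.1%) and 1822 (11.4%). Against sham muscle at days 7 and 14 the uncast legs differed in 6087 genes (38%), 3669 higher (22.9%) and 2418 lower (15.1%). Sham muscle at these days differed from the same naive arrays in 271 genes (1.69%). Between the days of casting the uncast legs hardly differed, with 6 genes called from day 2 to day 7 (0.0374%; 2 higher, 0.0125%, and 4 lower, 0.025%) and 84 from day 2 to day 14 (0.524%; 32 higher, 0.2%, and 52 lower, 0.324%), although 1053 and 1620 genes passed an unadjusted p of 0.05.

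The direction of the difference from naive went with how bright a gene was. Among the 133 genes with a mean naive signal of 6000 or more, 125 were lower and 0 higher in the uncast legs, with a median difference of −0.59. Among the 7675 genes under a signal of 50, 1106 were higher and 185 lower, with a median of 0.13. Cyclic loess, which removes such a trend array by array and was added after the trend was seen, left 89 lower and 6 higher genes in the brightest class with a median of −0.2. Quantile normalisation, which gives every array the same distribution of signals, left 41 lower and 27 higher genes with a median of −0.03. Over all genes these scalings turned the split of 3191 higher and 2036 lower into 2436 and 2466 (cyclic loess) and 2491 and 2238 (quantile), and centring each array on its median turned it into 1850 and 3039 by shifting the median of all genes from 0.069 to −0.039. Directions of lists of abundant genes are therefore given below with these scalings beside them.

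**Figure D1:**
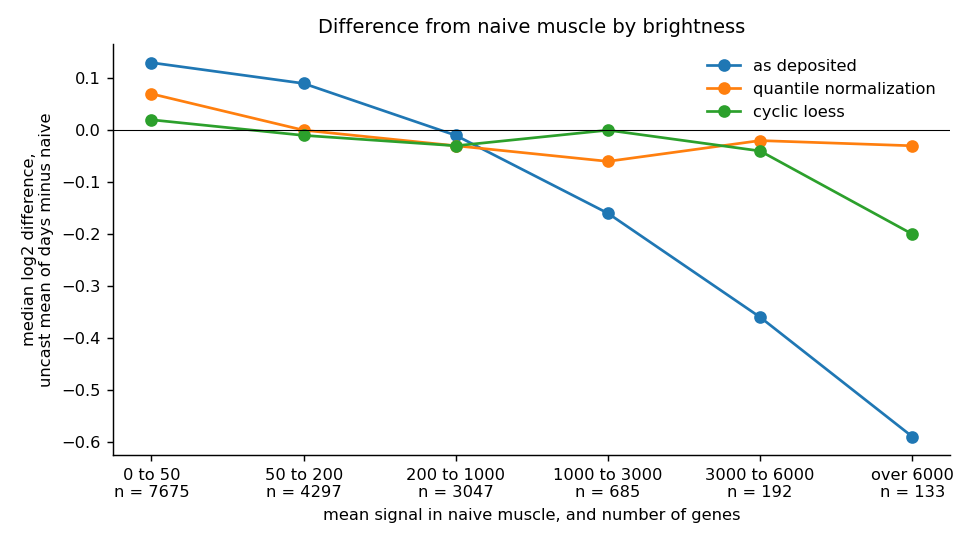
Median log2 difference between uncast legs (mean of days 2, 7 and 14, 26 arrays) and naive muscle (7 arrays) in 6 classes of genes by mean naive signal, as deposited and after quantile normalisation or cyclic loess. As deposited, the median goes from 0.13 in the dimmest class to −0.59 in the brightest, and after quantile normalisation it is −0.03 in the brightest class.

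The largest difference from naive was in Malat1, a long noncoding RNA held in the nucleus. Its signal lay between 6384 and 8636 in naive muscle, with a median of 6924. In the uncast legs it lay between 600 and 1363 at day 2 (median 914), between 618 and 1267 at day 7 (median 1003) and between 558 and 1061 at day 14 (median 750). Every uncast array was thus below every naive array and below every sham array, whose signals were 5470 to 7324 at day 7 and 3990 to 9306 at day 14. The difference from naive was −3.01 ± 0.15 (SE; limma, adjusted p = 3.88e-34) and that from sham −2.79 ± 0.12 (adjusted p = 4.44e-38), and all 7 probe sets of the gene were lower than in naive muscle. The cast legs of the same cohort had low Malat1 signals as well, with medians of 837, 1262 and 1098 at days 2, 7 and 14, whereas 17 left legs of the tenotomy cohort had signals of 5716 to 10900.

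Other large falls were in genes of unrelated roles. Mpst, a mitochondrial and cytosolic sulfurtransferase, had signals of 384 to 575 in naive muscle (median 497) and of 64.9 to 183, 75.9 to 167 and 68.7 to 175 in the uncast legs at days 2, 7 and 14 (medians 109, 117 and 116). All 26 uncast arrays were below all naive arrays, with a difference of −2.10 ± 0.21 (limma, adjusted p = 2.38e-14), although 1 sham array at day 14 was as low as 54.1. Zbtb7a, a transcriptional repressor, had naive signals of 127 to 192 and uncast signals of 34.5 to 72.4, again with no overlap. It fell by 1.60 on the log2 scale against naive muscle and by 1.36 against sham muscle, below which all 17 uncast arrays of days 7 and 14 lay. Raly, an RNA-binding protein, fell by 2.03, and Pigt, a subunit of the enzyme that attaches glycosylphosphatidylinositol anchors, by 1.92, with all 26 uncast arrays below naive for each. These genes are not measured alike by all their probe sets: 1 of 2 for Raly, 2 of 3 for Pigt and 2 of 3 for Zbtb7a went the way of the probe set used. The remaining probe sets had differences of 0.05 for Raly, −0.11 and 0.01 for Pigt and −0.24 and 0.13 for Zbtb7a, so that 1 probe set carried each fall. With the mean of probe sets the falls were −0.99, −0.67 and −0.57. Across all genes, 371 (2.31%) had all 26 uncast arrays below all 7 naive arrays and 274 (1.71%) had all above, 645 in all (4.02%).

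Fibre proteins were among the falls too. Actc1, cardiac actin, which is expressed in developing and regenerating muscle, had signals of 6571 to 13700 in naive muscle, 1541 to 5618 at day 2, 1368 to 5740 at day 7 and 1887 to 5247 at day 14. All 26 uncast arrays were below naive, with a difference of −1.64 ± 0.27 (limma, adjusted p = 4.68e-07), and the difference from sham was −0.75 ± 0.23 (adjusted p = 0.0047). Over the alternative scalings and fits the difference from naive ran from −1.75 to −1.15 and was called in all 46. The difference from sham ran from −0.87 to −0.35, and its call was lost in 3 of 45. Mybph, a myosin-binding protein of the thick filament, had signals of 950 to 2883 in naive muscle and medians of 352, 784 and 199 in the uncast legs, and fell by 2.00, with 25 of 26 uncast arrays below all naive arrays. Arrdc2, an alpha-arrestin, had naive signals of 100 to 608 and uncast signals of 32.9 to 248, 36.3 to 273 and 21.3 to 111, so the groups overlapped. Its difference was −1.59 ± 0.39 against naive (adjusted p = 0.00058) and −0.15 ± 0.32 against sham (adjusted p = 0.757), and sham differed from the same naive arrays by −1.55 ± 0.42 (adjusted p = 0.0276).

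**Figure D2:**
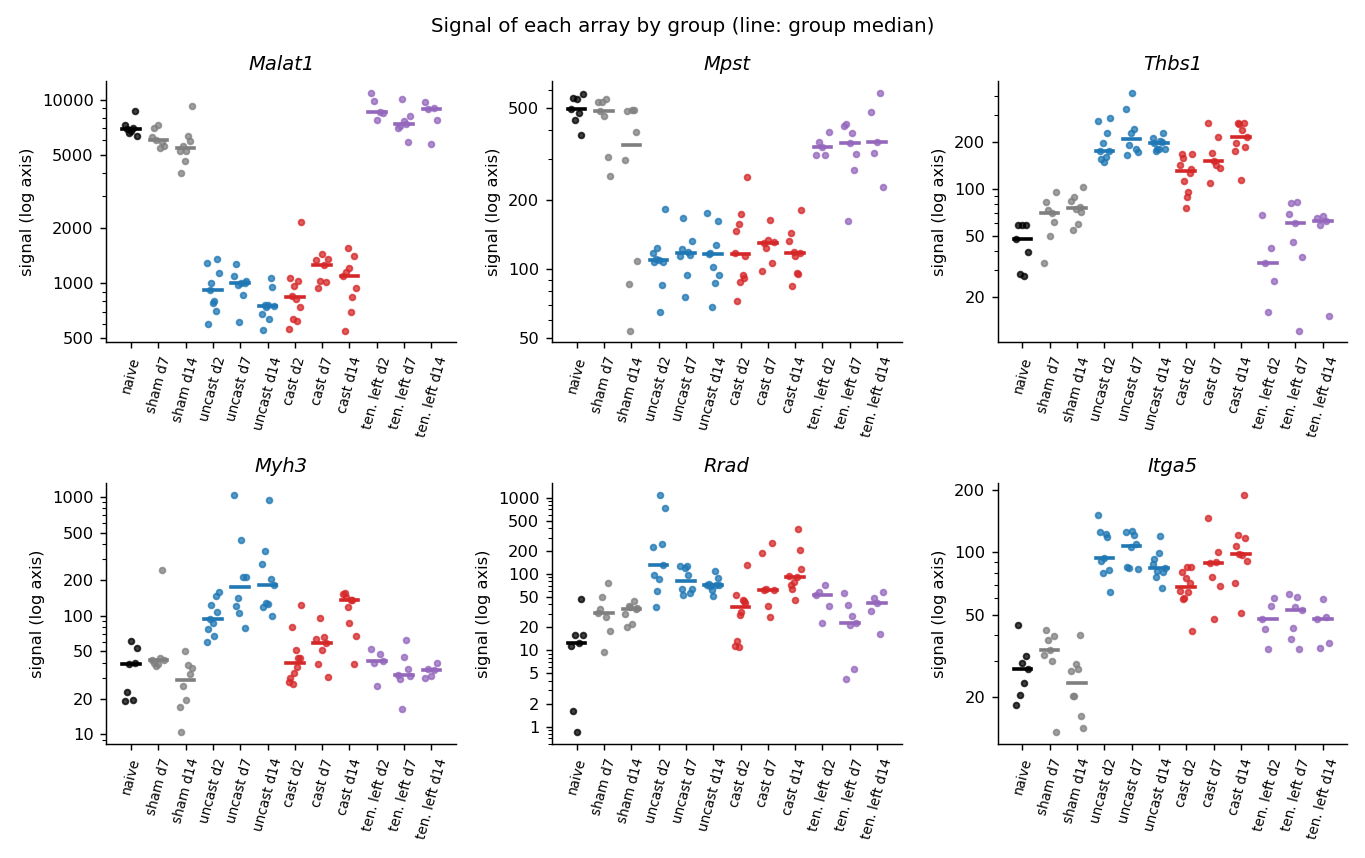
Array signal (log axis) of 6 genes in naive, sham, uncast, cast and left tenotomy-cohort muscles, 1 point per array and a line at the group median. Malat1 lies between 558 and 1363 in all uncast legs and between 6384 and 8636 in naive muscle, and Thbs1 and Itga5 are higher in all 26 uncast arrays than in any naive array.

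The largest rises included matrix and adhesion genes. Thbs1, a secreted matrix glycoprotein that activates TGF-beta, had naive signals of 27.6 to 58.8 (median 47.3). In the uncast legs its signals were 150 to 289 at day 2, 165 to 417 at day 7 and 177 to 231 at day 14, with medians of 177, 210 and 199. All 26 uncast arrays exceeded every naive array, and the 17 of days 7 and 14 exceeded every sham array. The rise was 2.14 ± 0.23 against naive (limma, adjusted p = 4.38e-13) and 1.56 ± 0.19 against sham (adjusted p = 3.05e-11). Tgfb1, the growth factor itself, rose by 1.44 ± 0.14, from 34.8 to 58.8 in naive muscle to 95.6 to 149 in the 26 uncast muscles, without overlap. Itga5, the integrin chain that binds fibronectin, had signals of 18.3 to 44.9 in naive muscle and of 64.7 to 152, 83.2 to 127 and 67.6 to 120 at the 3 days. It rose by 1.70 ± 0.15 (adjusted p = 2.27e-16), but only 2 of its 4 probe sets did so, their differences running from −0.29 to 1.92. Fn1, fibronectin, rose by 1.08 ± 0.15, from 559 to 754 in naive muscle to 895 to 3257 in uncast muscle. Tnc, tenascin C, a matrix protein of loaded and repairing tissue, rose by 1.64 ± 0.23. For both genes all 26 uncast arrays were above all naive arrays.

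Prg4, the lubricating proteoglycan of joints and tendon sheaths, had signals of 153 to 275 in naive muscle, 464 to 2191 at day 2, 543 to 1006 at day 7 and 486 to 706 at day 14. No uncast array overlapped naive, and the rise was 1.73 ± 0.24 (limma, adjusted p = 4.05e-09). Postn, periostin, a matrix protein of tendon and repairing muscle, had naive signals of 125 to 283 and uncast medians of 438, 756 and 448, with single arrays up to 1000, 4074 and 1926. It rose by 1.74 ± 0.30 against naive and by 2.03 ± 0.25 against sham. Spon2, a secreted matrix protein, rose by 1.96 ± 0.21 against naive and by 0.87 ± 0.17 against sham, and sham exceeded the same naive arrays by 1.06 ± 0.22 (adjusted p = 0.00169). Lbh, a transcription cofactor, had naive signals of 14.8 to 45.9 and uncast signals of 131 to 171, 112 to 197 and 152 to 241. Its rise of 2.26 ± 0.14 (adjusted p = 4.21e-26) left no overlap with naive or sham arrays, and its 3 probe sets rose by 0.56 to 2.26. Serpina3n rose by 1.95 on the log2 scale, with mean signals of 11.1 in naive and 80.5 in uncast muscle. For this gene 16 of 26 uncast arrays were above all naive arrays, so the groups overlapped. Over the alternative scalings and fits the Serpina3n difference ran from 1.31 to 2.31 and was called in all 46.

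As a group, genes of the extracellular matrix were higher in the uncast legs. Of 19 tested collagen genes 14 rose and 0 fell against naive muscle, with a median difference of 0.57 against 0.069 over all tested genes. The calls included Col12a1, a collagen of loaded tendon and muscle sheaths (1.11 ± 0.21), Col15a1, of vessel and fibre basement membranes (0.92 ± 0.13), Col5a3 (0.88 ± 0.13) and Col14a1 (0.79 ± 0.17). Col1a1, the main fibrillar chain, had a difference of 0.57 ± 0.23 with an adjusted p of 0.05, just short of a call. Of 30 matrix remodelling genes 19 rose and 0 fell (median 0.67), and of 10 tenocyte genes 8 rose and 0 fell (median 0.76). Beside the counts of these lists, 19.9% of all tested genes were called higher and 12.7% lower. The tenocyte calls included Thbs4, a thrombospondin of tendon (0.95 ± 0.11), Comp, cartilage oligomeric matrix protein (0.85 ± 0.20), Cilp2 (0.88 ± 0.23) and Scx, the scleraxis transcription factor of tendon cells (0.77 ± 0.16). With the actin ratio as a covariate 7 collagen, 15 matrix and 4 tenocyte genes were called higher and 0 lower.

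The number of tenocyte genes called differed between days, with 2 of 10 at day 2, 8 at day 7 and 8 at day 14, against 10, 13 and 11 of 19 collagen genes. These calls were all rises, beside 16.6%, 13.6% and 16.1% called higher among all tested genes at these days. No tenocyte or collagen gene was called between day 2 and day 14. Comp had signals of 137 to 283 in naive muscle, 181 to 337 at day 2, 224 to 484 at day 7 and 349 to 534 at day 14, so that only the day 14 muscles lay wholly above naive. The summed signal of the 10 tenocyte genes ran from 3490 to 4960 in naive muscle, from 4630 to 6610 at day 2, from 4620 to 8530 at day 7 and from 6050 to 8640 at day 14. In sham muscle it ran from 2770 to 4590 at day 7 and from 3670 to 4570 at day 14. Against sham, 17 of 19 collagen, 23 of 30 matrix and 9 of 10 tenocyte genes were called higher and 0 lower, where 22.9% of all tested genes were called higher and 15.1% lower. The part that tendon tissue taken with the muscle plays in these values was not tested.

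**Figure D3:**
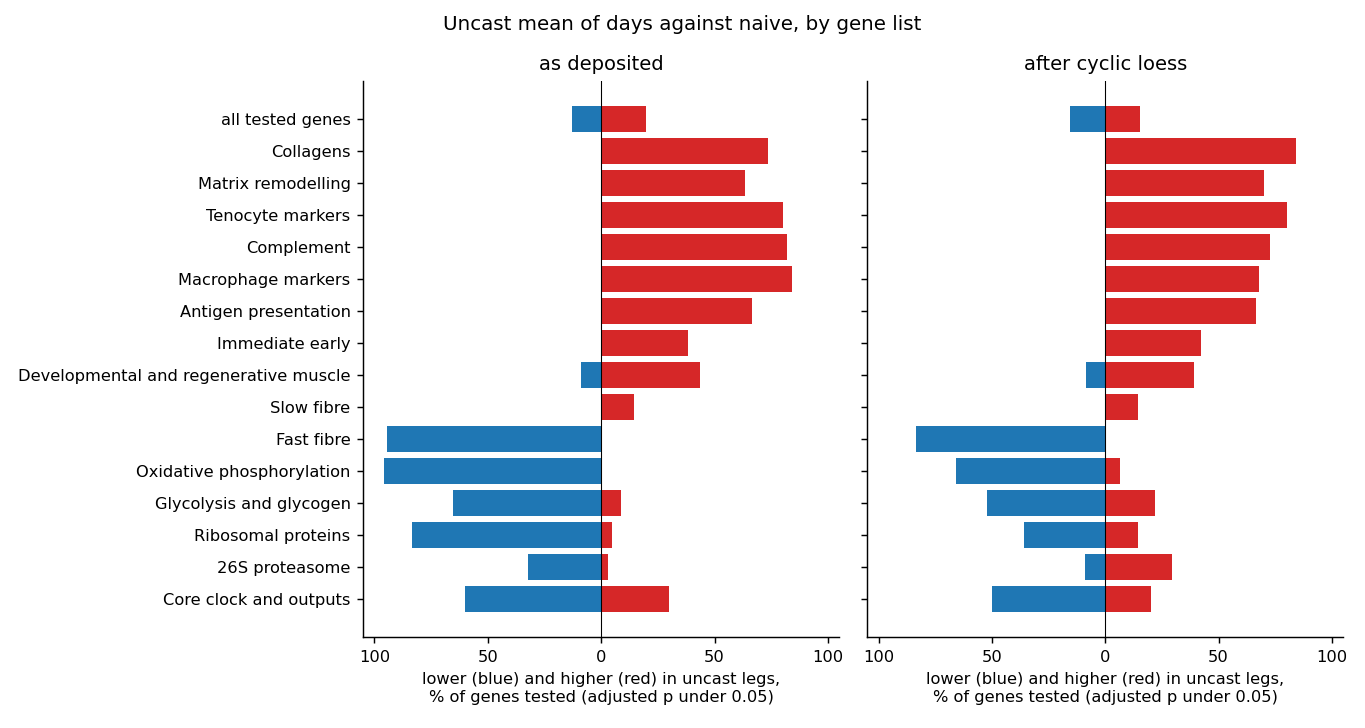
Percent of the tested genes of each list called lower or higher in uncast legs (mean of days) than in naive muscle, as deposited and after cyclic loess. Collagen, matrix, macrophage, complement and tenocyte genes are called higher under both, whereas the share of fast fibre, ribosomal and oxidative phosphorylation genes called lower shrinks with cyclic loess.

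Macrophage genes were higher in the uncast legs as well. Of 25 tested macrophage markers 21 rose and 0 fell (median 0.73), with 20, 15 and 10 called higher at days 2, 7 and 14. Over all tested genes 19.9% were called higher averaged over the days, and 16.6%, 13.6% and 16.1% at these days. Gpnmb, a glycoprotein of phagocytes, rose by 1.06 ± 0.17, Lyz1, lysozyme, by 0.98 ± 0.20, Ctss, a lysosomal protease, by 0.84 ± 0.17 and Adgre1, the F4/80 antigen, by 0.62 ± 0.13. Adgre1 signals were 74.6 to 114 in naive muscle and 106 to 257, 127 to 224 and 115 to 198 in the uncast legs, so the groups met only at the edges. The summed signal of the markers was 2520 to 3590 in naive muscle, 2950 to 12100 at day 2, 3320 to 7620 at day 7 and 3020 to 7450 at day 14, and the uncast arrays thus spread far more widely than the naive ones. Marco stayed near the floor, with medians of 3.93 in naive and 4.72 in uncast muscle. Lgals3, a galectin of activated macrophages, rose by 0.84 ± 0.22 (adjusted p = 0.00147), with 12 of 26 uncast arrays above all naive arrays.

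Of 11 complement genes 9 rose and 0 fell (median 0.68), among them C5ar1 (1.35 ± 0.24) and C3ar1 (0.98 ± 0.16), receptors for the cleavage fragments that attract leukocytes, Cfb, factor B of the alternative pathway (1.04 ± 0.23), and Serping1, the C1 inhibitor (0.68 ± 0.12). Of 12 antigen presentation genes 8 rose and 0 fell (median 0.52). Cd74, the invariant chain of class II molecules, had signals of 352 to 509 in naive muscle, 488 to 1013 at day 2, 598 to 1208 at day 7 and 710 to 2202 at day 14, and rose by 1.05 ± 0.17, and H2-Eb1 and H2-Aa, class II chains, rose by 1.15 ± 0.19 and 0.92 ± 0.17. Ptprc, the common leukocyte antigen, rose by 0.83 ± 0.19 from 40.0 to 71.4 in naive muscle to 53.9 to 216. Of 8 neutrophil genes 0 were called in limma's test against naive, under an adjusted or an unadjusted p of 0.05. Of 11 lymphocyte genes 2 rose, Ptprc and Cd79a, no larger a share than the 19.9% called higher among all tested genes. The T cell genes Cd3e and Cd4 had uncast medians of 5.89 and 3.22. Against sham, 18 of 25 macrophage genes (median 0.51), 10 of 11 complement genes and 2 of 8 neutrophil genes (median 0.79) were called higher and 0 lower, beside 22.9% higher among all tested genes. Quantile normalisation left 18 macrophage and 8 complement genes higher than naive and 0 lower.

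A number of immediate early and stress genes rose in the uncast legs. Of 26 immediate early genes 10 were higher at day 2, 10 at day 7 and 3 at day 14, with 0 lower at any day, and 10 were higher averaged over the days (median 0.29). Among all tested genes 16.6%, 13.6% and 16.1% were called higher at these days, and 19.9% averaged over them. The day 14 count was thus no larger a share than among all tested genes. Klf4, a transcription factor induced by strain and growth factors, had signals of 96.7 to 127 in naive muscle, 188 to 373 at day 2, 197 to 372 at day 7 and 170 to 322 at day 14. All 26 uncast arrays exceeded naive, and the rise was 1.11 ± 0.14 (limma, adjusted p = 5.04e-10). Klf2, a shear-responsive factor, rose by 1.01 ± 0.19, Fosb by 1.10 ± 0.25, and Fos, of the same AP-1 family, by 1.04 ± 0.29. Against sham the differences were 0.58 ± 0.12 for Klf4 (adjusted p = 3.05e-05) and 0.49 ± 0.24 for Fos (adjusted p = 0.0954). Rrad, a small GTPase that inhibits calcium channels and is induced in stressed muscle, had the largest rise of all named genes. Its signal was 0.845 to 46.3 in naive muscle, 37.1 to 1096 at day 2, 52.6 to 126 at day 7 and 50.7 to 109 at day 14, with medians of 12.3, 132, 81.3 and 72.1. It rose by 2.87 ± 0.36 against naive (adjusted p = 1.38e-10) and by 1.23 ± 0.30 against sham (adjusted p = 0.000382), and 25 of 26 uncast arrays were above all naive arrays.

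Heat shock genes did not move as a block. Of 22 tested chaperone genes 8 rose and 7 fell (median 0.13), and after quantile normalisation 11 rose and 4 fell. As deposited, 19.9% of all tested genes were called higher and 12.7% lower. Hspa1b, the inducible HSP70, had naive signals of 44.9 to 94.2 in 6 animals and 641 in the remaining animal, replicate 6. The uncast signals were 179 to 1081 at day 2, 170 to 831 at day 7 and 187 to 436 at day 14. The rise of 1.72 ± 0.29 against naive (adjusted p = 5.47e-07) was 2.17 without that naive animal, and the rise against sham was 1.54 ± 0.24 (adjusted p = 5.03e-08). Hsp90aa1, the inducible HSP90, rose by 0.73 ± 0.13 and Dnajb4, an HSP40, by 0.63 ± 0.09, whereas Hspd1, the mitochondrial HSP60, fell by 0.37 on the log2 scale. Hspa1b and its neighbour Hspa1a are near-identical genes whose probes may not tell them apart. The heat shock element was searched as GAANNTTC on both strands in the 300 bases around each RefSeq start site of GRCm38.p6. A gene was counted if any of its promoters held the element. It occurred in 12 of the 18 list genes that had a promoter sequence (66.7%) and in 9.04% of 27025 genes. It was present in rising and falling members alike, as in these stretches of a gene that rose and of one that fell, with the element in capitals.
Hspa1b (chr17:34959305-34959372, minus strand, element 104 bases before the start): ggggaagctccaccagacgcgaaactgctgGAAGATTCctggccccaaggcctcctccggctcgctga
Hspd1 (chr1:55088034-55088101, minus strand, element 139 bases before the start): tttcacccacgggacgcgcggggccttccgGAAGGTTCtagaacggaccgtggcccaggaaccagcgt

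Genes of the circadian clock differed from naive in both directions. Of 20 tested clock genes and outputs 6 were higher and 12 lower in the uncast legs (median −0.37), and at days 2, 7 and 14 the counts were 5 and 9, 4 and 10, and 4 and 12. Over all tested genes 19.9% were called higher and 12.7% lower averaged over the days. At days 2, 7 and 14 these shares were 16.6% and 11.3%, 13.6% and 9.44%, and 16.1% and 11.4%. Arntl, which encodes BMAL1, the activating arm of the clock, had signals of 47.4 to 75.9 in naive muscle, 129 to 204 at day 2, 128 to 212 at day 7 and 148 to 279 at day 14. The sham signals were 146 to 202 and 103 to 216, so that sham and uncast muscle overlapped and naive muscle stood below both. The difference from naive was 1.48 ± 0.14 (limma, adjusted p = 6.29e-15), that from sham 0.17 ± 0.12 (adjusted p = 0.267), and sham exceeded the same naive arrays by 1.37 ± 0.15 (adjusted p = 2.1e-10). The dimmer of the 2 Arntl probe sets differed from naive by only 0.12. Over the alternative scalings and fits the difference from naive ran from 0.8 to 1.53 and was called in all 46. That from sham ran from −0.28 to 0.21. Npas2, a partner of BMAL1, showed signals of 0.309 to 10.4 in naive and 13.8 to 43.1 in uncast muscle, a rise of 2.19 ± 0.22, with 0.57 ± 0.19 against sham (adjusted p = 0.00964). Clock, the other partner, rose by 0.53 ± 0.08 against naive and by 0.27 ± 0.07 against sham.

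The period genes and the outputs Dbp, Tef and Hlf were lower than naive, whereas other repressors went either way. Dbp, an output factor driven by BMAL1, had signals of 879 to 1618 in naive muscle, 213 to 784 at day 2, 259 to 749 at day 7 and 259 to 595 at day 14, against 214 to 651 and 301 to 704 in sham muscle. Naive muscle stood above all others, with a difference of −1.65 ± 0.19 for uncast against naive (limma, adjusted p = 7.76e-12), −0.08 ± 0.16 for uncast against sham (adjusted p = 0.753) and −1.49 ± 0.20 for sham against naive. Per2, a period repressor, had naive signals of 49.4 to 89.3 and uncast signals of 9.67 to 45.5, 8.52 to 27.6 and 8.87 to 32.5, and its differences in the same order were −1.59 ± 0.23, 0.29 ± 0.19 (adjusted p = 0.228) and −1.97 ± 0.24. Per3 gave −1.43 ± 0.15, −0.13 ± 0.13 (adjusted p = 0.463) and −1.36 ± 0.16, and Per1 −0.68 ± 0.23, 0.30 ± 0.19 (adjusted p = 0.212) and −1.17 ± 0.24. The call for Per1 against naive was lost without naive replicate 7 (−0.59). Values against naive from uncast and from sham muscle share the naive arrays and are given side by side, not as independent results.

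Against sham muscle 5 of 20 clock genes were called higher and 3 lower in the uncast legs, shares close to the 22.9% higher and 15.1% lower among all tested genes. Nr1d1, the REV-ERB alpha repressor of BMAL1, had signals of 220 to 427 in naive, 308 to 606 in sham and 326 to 1157 in uncast muscle, and rose by 1.13 ± 0.15 against naive and by 0.69 ± 0.13 against sham (limma, adjusted p = 3.98e-06). Ciart, a repressor of the clock, differed from naive by −0.94 ± 0.24 and from sham by 0.80 ± 0.20 (adjusted p = 0.000459), and so lay between the 2 references. Cry2, a cryptochrome repressor, differed from naive by −0.06 ± 0.11 (adjusted p = 0.747) and exceeded sham by 0.52 ± 0.09 (adjusted p = 1.37e-06). Bhlhe41, another repressor, fell by 0.96 on the log2 scale against naive and by 0.71 against sham (adjusted p = 0.000211).

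**Figure D4:**
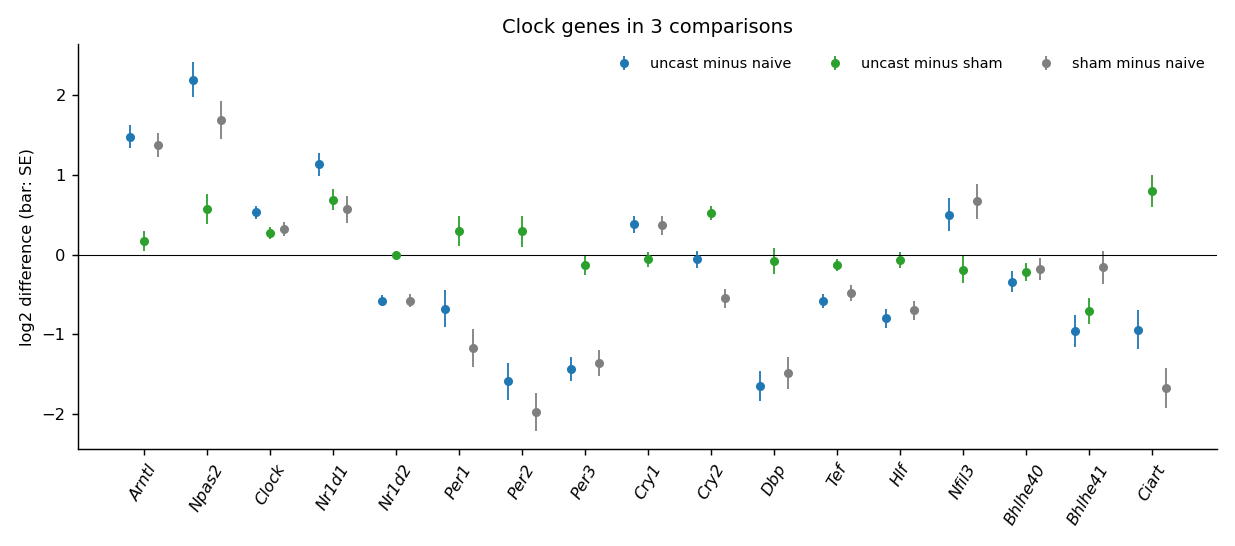
Log2 difference ± SE for 17 clock genes in 3 comparisons: uncast legs minus naive, uncast legs minus sham (days 7 and 14), and sham minus naive, the first and the last sharing the naive arrays. Arntl, at 1.48 and 1.37, and Dbp, at −1.65 and −1.49, differ from naive in uncast and in sham muscle, with 0.17 and −0.08 between uncast and sham.

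The E-box CACGTG, the letters bound by BMAL1 with CLOCK, reads the same on both strands. It occurred in a RefSeq promoter of GRCm38.p6 for 5 of the 17 clock genes that could be matched (29.4%) and for 8.09% of 27025 genes. The matches lay in genes that were lower than naive (Per1, Tef, Ciart and Bhlhe41) and in 1 that was higher (Cry1, 0.38 ± 0.11). The stretches around 3 of these E-boxes show how the shared letters sit in otherwise different sequence, with the E-box in capitals.
Per1 (chr11:69098753-69098818, plus strand, E-box 166 bases before the start): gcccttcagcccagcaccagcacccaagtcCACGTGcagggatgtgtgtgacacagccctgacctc
Tef (chr15:81802516-81802581, plus strand, E-box 127 bases before the start): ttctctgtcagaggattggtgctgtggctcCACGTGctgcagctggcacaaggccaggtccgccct
Cry1 (chr10:85185079-85185144, minus strand, E-box 60 bases before the start): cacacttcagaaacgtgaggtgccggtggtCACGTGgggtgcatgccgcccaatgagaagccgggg

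Contractile and metabolic genes, which are among the brightest of the array, were mostly lower than naive as deposited. Of 18 fast fibre genes 17 fell and 0 rose (median −0.84), but 7 fell and 3 rose after quantile normalisation (median −0.03) and 15 fell and 0 rose after cyclic loess. Myh4, the fast type IIB myosin heavy chain and the main myosin of this muscle, had signals of 15900 to 21800 in naive muscle, 5336 to 16000 at day 2, 6099 to 16300 at day 7 and 5656 to 17000 at day 14. The groups overlapped for 4 of 26 uncast arrays, and the difference was −1.02 ± 0.16 (limma, adjusted p = 1.8e-07), or −0.35 with the actin ratio as a covariate (adjusted p = 0.0613). After quantile normalisation the difference of Myh4 was −0.13 and after cyclic loess −0.5. Atp2a1, the calcium pump of fast fibres, fell by 1.01 and Tpm1, fast tropomyosin, by 1.05. Of 14 slow fibre genes 2 rose, Casq2, the slow calsequestrin (0.88 ± 0.15), and Pln, phospholamban (0.53 ± 0.14), and 0 fell. These rises against naive were no larger a share than the 19.9% called higher among all tested genes, of which 12.7% were called lower. Against sham, 8 of the 14 slow fibre genes were called higher and 0 lower (median 0.41), beside 22.9% higher and 15.1% lower among all tested genes. Myh7, the slow myosin, had a difference of 0.21 ± 0.28 against naive (adjusted p = 0.616) and was higher than sham by 0.94 ± 0.24 (adjusted p = 0.000637).

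Genes of energy metabolism followed the same course. Of 47 oxidative phosphorylation genes 45 fell and 0 rose (median −0.56), of which quantile normalisation left 25 falling and 4 rising (median −0.11) and cyclic loess 31 and 3. Ndufa5, a subunit of complex I, had signals of 3063 to 4041 in naive muscle and 1648 to 2469 in uncast muscle, with no overlap, and fell by 0.78 on the log2 scale. Ndufb6 and Ndufa6, of the same complex, fell by 0.75 and 0.83. Of 25 fatty acid oxidation genes 19 fell and 0 rose, or 12 and 0 after quantile normalisation and 12 and 1 after cyclic loess, led by Eci1, an enoyl-CoA isomerase (−0.64 ± 0.06), and Etfa, an electron carrier (−0.53 ± 0.06). Of 22 tricarboxylic acid cycle genes 16 fell and 1 rose, or 7 and 4 after quantile normalisation. Of 23 glycolytic genes 15 fell and 2 rose, but 6 fell and 5 rose after quantile normalisation, which turned the median from −0.55 to 0.03. Of 42 ribosomal protein genes 35 fell and 2 rose, but 11 fell and 8 rose after quantile normalisation. As deposited, 12.7% of all tested genes were called lower and 19.9% higher. The actin ratio moved with these groups, and with it as a covariate 3 of 18 fast fibre, 37 of 47 oxidative phosphorylation and 17 of 42 ribosomal protein genes were called lower.

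Ppargc1a, the PGC-1 alpha coactivator of mitochondrial genes, was lower than naive by its brightest probe set (−0.64 ± 0.13; limma, adjusted p = 5.85e-05), but only 2 of its 5 probe sets went that way, and the mean over its probe sets gave 0.02. Nnt, a mitochondrial transhydrogenase that is partly deleted in the C57BL/6J substrain, rose by 0.21 ± 0.08 against naive, a call that was lost on leaving out each of 6 single arrays, and the difference ranged from 0.17 without naive replicate 1 to 0.23 without naive replicate 7. Its 3 probe sets differed from naive by 0.21 to 0.56. Against sham the Nnt difference ran from 0.32 to 0.57 over the alternative scalings and fits and was called in all 45. Of 2 tested C57BL/6 substrain genes, 2 were called higher against naive (median 0.27) and 2 against sham (median 0.38).

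The ubiquitin ligases Fbxo32 and Trim63 were higher than naive averaged over the days and were not called at day 7. Fbxo32, the atrogin-1 ubiquitin ligase of atrophying muscle, had signals of 479 to 1367 in naive muscle (median 691), 883 to 2502 at day 2, 597 to 2021 at day 7 and 869 to 1669 at day 14 (medians 1220, 744 and 994). The groups overlapped, with 8 of 26 uncast arrays above all naive arrays. The rise was 0.60 ± 0.19 against naive (limma, adjusted p = 0.00812), with its 3 probe sets between 0.19 and 1.16, the day 7 difference was 0.31 ± 0.23 (adjusted p = 0.363), and the difference from sham was 0.13 ± 0.16 (adjusted p = 0.556). Trim63, the MuRF1 ligase, had naive signals of 1369 to 1877 and uncast medians of 2171, 2074 and 2182, a rise of 0.40 ± 0.12 (adjusted p = 0.00606) with 20 of 26 arrays above naive, a day 7 difference of 0.35 ± 0.15 (adjusted p = 0.0715), and a difference from sham of 0.15 ± 0.10 (adjusted p = 0.244). Of 21 ubiquitin ligase genes 6 rose and 4 fell (median 0.028). Of 34 proteasome genes 1 rose and 11 fell, led by Psma4 (−0.37 ± 0.06), whereas 8 rose and 6 fell after quantile normalisation and 10 rose and 3 fell after cyclic loess. Of 31 autophagy and lysosome genes 11 rose and 6 fell, among them Becn1 (0.41 ± 0.06) and Ulk1 (0.42 ± 0.09), initiators of autophagy, and Map1lc3a (−0.45 ± 0.09), a coat protein of autophagosomes. Of 28 glucocorticoid and FOXO responsive genes 5 rose and 8 fell, among them Foxo4 (0.49 ± 0.08) and Glul, glutamine synthetase (−0.93 ± 0.16). Beside the counts of these lists, 19.9% of all tested genes were called higher and 12.7% lower. The rises among glucocorticoid and FOXO responsive genes, averaged over the days, were no larger a share than that. At day 2, 8 of these 28 genes rose and 5 fell, beside 16.6% higher and 11.3% lower among all tested genes. At day 14, 2 rose and 9 fell, beside 16.1% and 11.4%. Against sham, 8 were called higher and 1 lower (median 0.17), beside 22.9% and 15.1%.

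Genes of developing and regenerating muscle rose more often than they fell, 10 against 2 of 23 (median 0.28). Myh3, embryonic myosin, which adult fibres express when they regenerate, had signals of 19.0 to 61.2 in naive muscle, 59.5 to 157 at day 2, 78.1 to 1046 at day 7 and 99.6 to 945 at day 14, with medians of 38.7, 93.4, 175 and 180. All but 1 uncast array exceeded every naive array, and the rise was 2.13 ± 0.29 against naive (limma, adjusted p = 3.53e-09) and 2.33 ± 0.25 against sham. The medians in the cast legs were 40.2, 58.7 and 134 at the same days. Myod1 and Myog, the myogenic transcription factors, rose by 0.74 ± 0.13 and 0.61 ± 0.14. Actc1, described above as a gene of developing and regenerating muscle, went the other way and fell by 1.64 on the log2 scale. For Pax7, 17 of 26 uncast arrays were below all naive arrays and 1 was above them. Cdkn1a, the p21 inhibitor of the cell cycle, rose by 0.81 ± 0.20, with naive signals of 84.7 to 195 and uncast signals of 133 to 723, 180 to 560 and 155 to 247. Of 20 genes of the neuromuscular junction and denervation 3 rose and 4 fell, with Chrne and Chrna1, acetylcholine receptor subunits, at −0.54 ± 0.13 and −0.49 ± 0.12. Over all tested genes the shares were 19.9% higher and 12.7% lower. Igf1, the growth factor, had a difference of −0.35 ± 0.16 (adjusted p = 0.0792), and Cirbp, a cold-inducible RNA-binding protein, of 0.25 ± 0.13 (adjusted p = 0.14). Mstn, myostatin, was not tested, as no probe set was assigned to it alone.

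Few genes differed between the days of casting, and those that fell from day 2 included stress and inflammation genes. Mt2, a metallothionein induced by glucocorticoids and metals, had signals of 288 to 6042 at day 2, 219 to 2412 at day 7 and 272 to 690 at day 14, with medians of 1107, 462 and 353 against 241 in naive muscle. It fell by 1.54 ± 0.39 from day 2 to day 14 (limma, adjusted p = 0.0338). Timp1, an inhibitor of matrix proteases, had medians of 186, 106 and 72.5 against 35.8 in naive muscle and fell by 1.36 ± 0.35 (adjusted p = 0.0346). Ankrd1, a stretch-responsive ankyrin protein of the sarcomere, had medians of 391, 313 and 224 against 81.4 in naive muscle and fell by 1.14 ± 0.28 (adjusted p = 0.0266). Its uncast and naive signals overlapped, with 4 arrays of day 2 and 0 of days 7 and 14 above all naive arrays. The Ankrd1 difference from naive over the days was 1.98 without naive replicate 6 and 1.42 without naive replicate 3. Socs3, a feedback inhibitor of cytokine signalling, had medians of 147, 99.7 and 55.7 against 47.7 and fell by 1.12 ± 0.28 (adjusted p = 0.028). Day 2 signals ran from 60.5 to 565 for Timp1, from 256 to 1060 for Ankrd1 and from 54.9 to 511 for Socs3. In all 4 genes the ranges of days 2 and 14 overlapped.

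These falls lost their call when single arrays were left out. Without uncast day 2 replicate 6 the fall was 1.24 on the log2 scale for Mt2 (adjusted p = 0.163), 1.22 for Timp1 (adjusted p = 0.118), 1.00 for Ankrd1 (adjusted p = 0.111) and 0.91 for Socs3 (adjusted p = 0.142), and calls were lost in 11, 10, 6 and 8 of 18 such fits. The count of 84 genes from day 2 to day 14 was 38 without that array and 168 without uncast day 14 replicate 8, and the count of 6 from day 2 to day 7 was 0 and 37 without uncast day 2 replicate 6 and uncast day 7 replicate 5. Csrp3, the muscle LIM protein of the stretch response, was higher than naive at day 2 (1.32 ± 0.36; limma, adjusted p = 0.00277), and its values were 0.68 ± 0.37 at day 7 (adjusted p = 0.186) and 0.28 ± 0.36 at day 14 (adjusted p = 0.615). Naive replicate 6, which was also high in Hspa1b, had a Csrp3 signal of 4771 against 1051 to 1810 in the others, and without it the difference averaged over the days was 1.01 in place of 0.76. Of 17 mechanical stress genes 7 were higher and 2 lower at day 2, and 3 fell and 0 rose from day 2 to day 14. Over all tested genes 16.6% were called higher and 11.3% lower at day 2, and 0.2% and 0.324% from day 2 to day 14.

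Other genes rose over the days of casting. Sln, sarcolipin, an inhibitor of the calcium pump, had signals of 114 to 320 in naive muscle, 56.2 to 242 at day 2, 140 to 934 at day 7 and 171 to 1930 at day 14, with medians of 235, 172, 359 and 426. It rose by 1.66 ± 0.30 from day 2 to day 14 (limma, adjusted p = 0.000874), and at day 14 it was above naive by 1.13 ± 0.32 (adjusted p = 0.00428). Uchl1, a ubiquitin hydrolase of neurons and satellite cells, had signals of 30.5 to 51.2 in naive muscle, 39.2 to 74.6 at day 2, 51.6 to 115 at day 7 and 74.8 to 153 at day 14. All 9 muscles of day 14 exceeded all 9 of day 2, and the rise was 0.95 ± 0.18 (adjusted p = 0.00121), while medians in the cast legs were 41.5, 50.1 and 47.1. Cyfip2, a regulator of actin assembly, rose by 0.84 ± 0.17 (adjusted p = 0.00511), which became 0.46 for the mean of its 3 probe sets (adjusted p = 0.228), and Fbln7, a fibulin of the matrix, by 0.74 ± 0.19 (adjusted p = 0.0417), which lost its call on leaving out each of 11 of 18 single arrays (0.68 without uncast day 2 replicate 6).

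From day 2 to day 7, C1qtnf3, a secreted factor of the adiponectin family made by connective tissue cells, rose by 1.87 ± 0.40 (limma, adjusted p = 0.04). Its signals were 4.13 to 18.3 at day 2, 17.5 to 401 at day 7 and 16.8 to 281 at day 14, against 3.90 to 13.2 in naive muscle, and the call was lost on leaving out each of 7 of 17 single arrays (1.48 without uncast day 7 replicate 1). Eif4ebp1, the 4E-BP1 repressor of translation, had signals of 682 to 1347 at day 2, 460 to 1001 at day 7 and 504 to 780 at day 14, against at most 720 in naive muscle, and fell by 0.59 ± 0.13 to day 7 (adjusted p = 0.0407) and by 0.55 ± 0.12 to day 14 (adjusted p = 0.0146). Lonrf1 fell by 0.55 ± 0.12 and Anxa7, an annexin, by 0.44 ± 0.09, and Ostm1, a partner of a lysosomal chloride transporter, rose by 0.28 ± 0.06. Calls of Eif4ebp1, Lonrf1, Anxa7 and Ostm1 from day 2 to day 7 were lost in 11, 12, 4 and 9 of 17 fits that left out 1 array.

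**Figure D5:**
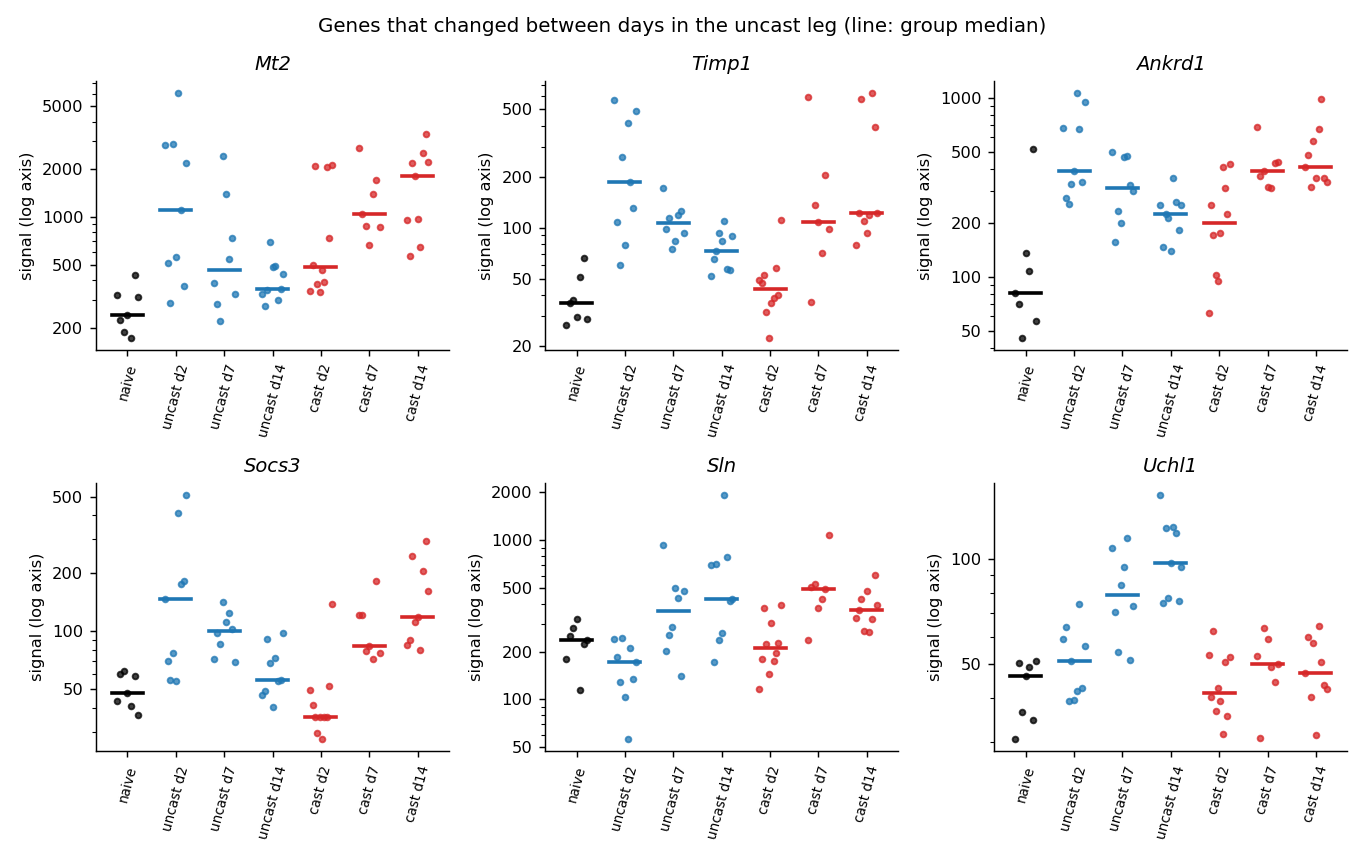
Array signal (log axis) of Mt2, Timp1, Ankrd1, Socs3, Sln and Uchl1 in naive muscle and in uncast and cast legs at days 2, 7 and 14, 1 point per array and a line at the group median. In uncast legs the Mt2 medians go from 1107 through 462 to 353 and those of Uchl1 from 51.1 through 79.1 to 97.4.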

How the data were processed

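One array per muscle gave 45101 probe sets, and all 111 arrays entered the fit. The deposited values are linear intensities, which the authors made with MAS5 and GCOS per the submitters' processing notes, whose versions are not given in the sources used here. Probe sets were named through the platform annotation, with 34958 carrying 1 gene, 932 several and 9211 none. Controls and probe sets with several genes or none were left out. Signals were taken as log2(signal + 3.984), a constant computed here from the deposited intensities as their 20th percentile. Genes were kept where the signal exceeded its array's 40th percentile in at least 5 arrays, and the brightest probe set stood for a gene. That left 16029 genes.

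Group means were fitted with limma 3.58.1 (R 4.3.3) over 16 groups, treating muscles of 1 animal as correlated (0.0964), with a variance trend and Benjamini and Hochberg adjustment within each comparison at 0.05. Figures and summaries used Python 3.11.15 with pandas 2.3.3 and matplotlib 3.10.9. The fit was tested on simulated data for the mean of days against naive, where 92% of 50 genes changed by −1, 60% of 50 changed by −0.5, 68% of 50 changed by 0.5 and 78% of 50 changed by 1 were recovered among 16029 genes, with 7 false calls. The simulated noise was normal and independent between arrays, with no shift between cohorts and no trend with brightness or RNA quality. The false calls therefore do not measure such effects in the real data. Genes were named by rule: among genes called in the mean of days with 1 sign at all 3 days and a mean signal of at least 50, the 10 largest rises and 10 largest falls; of the day contrasts the 4 largest of each; a set of 23 genes in any case; and 2 to 4 members of each list by lowest p. Unnamed transcripts were passed over, and some further list members were named after their values were seen. The members and gene lists were chosen with earlier results of these data known. Replicate numbers did not pair the samples: 46 same-numbered pairs across groups correlated at 0.0068 on average. Arrays carry no read depth, and their number limits the precision. Tenotomy labels name the left leg and the design text the right, so those muscles were used by side only.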

Additional observations from a re-analysis of the deposited data

Results flagged for a closer look

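In 16 of 196 tested groups of signals the highest or lowest array stood far from the rest, where chance gives about 1 group in 20. Among naive muscles, replicate 6 stood apart in 4 genes: Hspa1b at 641 (nearest 94.2), Malat1 at 8636 (nearest 7246), Anxa7 at 842 (nearest 704) and Csrp3 at 4771 (nearest 1810). At day 7, uncast replicate 5 stood apart in 4 genes: Spon2 at 15.6 (nearest 44.8), Actc1 at 1368 (nearest 3104), Lonrf1 at 251 (nearest 172) and Col1a1 at 2165 (nearest 4261). At day 7, Cyfip2 was 18.4 in replicate 4 (nearest 32.9) and Fbln7 51.3 in replicate 3 (nearest 76.9). At day 2, replicate 6 had an Eif4ebp1 signal of 1347 (nearest 900) and a Myh7 signal of 1070 (nearest 2877). At day 14, Postn was 1926 in replicate 6 (nearest 687), Lgals3 157 in replicate 8 (nearest 106), and replicate 2 had signals of 780 for Eif4ebp1 (nearest 597) and 17000 for Myh4 (nearest 8431).

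Differences between days, tested directly in limma, were called for 14 named values. From day 2 to day 7 they were 1.87 for C1qtnf3, 0.28 for Ostm1, −0.59 for Eif4ebp1, −0.55 for Lonrf1 and −0.44 for Anxa7. From day 2 to day 14 they were 1.66 for Sln, 0.95 for Uchl1, 0.84 for Cyfip2, 0.74 for Fbln7, −1.54 for Mt2, −1.36 for Timp1, −1.14 for Ankrd1, −1.12 for Socs3 and −0.55 for Eif4ebp1. The calls for Sln, Uchl1 and Cyfip2 were kept in every fit that left out 1 array.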

How the results depend on the processing

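The number of genes called against naive, averaged over the days, stayed within 1.5 times of 5227 under all 46 alternatives (4674 to 5261 when 1 array was left out), and so did the 29 alternatives at day 2 (4023 to 4494). With the actin ratio as a covariate, 2448 genes were called at day 7, 2855 at day 14 and 3704 against sham. Leaving out 1 array gave 3283 to 3770 at day 7, 3943 to 4360 at day 14 and 5756 to 6094 against sham. The count of 6 from day 2 to day 7 was 2 with 16 added to the signal, 13 with quantile normalisation, 3 with centring, 17 with the stricter filter, 135 with array weights, 2 with the actin ratio, 0 with only the groups compared, 15 with cyclic loess and 1 without the arrays of high median signal. The count of 84 from day 2 to day 14 was 139 with quantile normalisation, 50 with centring, 165 with the stricter filter, 348 with array weights, 173 with the actin ratio, 145 with only the groups compared and 143 with cyclic loess. Leaving out 1 array gave 0 to 37 and 38 to 168. The cause of these shifts was not tested. With the replicate number as a block, 10 genes were called from day 2 to day 7, 94 from day 2 to day 14 and 5223 against naive. Ppargc1a turned from lower to higher with the mean of its probe sets, at 0.02 over the days, 0.15 at day 14 and 0.25 against sham. Cyclic loess, and leaving out arrays of high median signal, were chosen after seeing the data. No array met the criterion for a poor low end, so that alternative was not run.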

Other observations

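Genes of protein folding in the endoplasmic reticulum rose more often than they fell, 9 against 3 of 20 (median 0.18 against 0.069 over all genes). Calr and Canx, the lectin chaperones, rose by 0.64 ± 0.07 and 0.48 ± 0.07, and Hyou1 by 0.71 ± 0.11. Of 17 lipid synthesis genes 8 rose and 2 fell (median 0.33), with Scd2, a fatty acid desaturase, at 0.79 ± 0.13 and Srebf1, the sterol regulatory factor, at 0.57 ± 0.10. Of 22 antioxidant genes 8 rose and 5 fell. Beside the counts of these lists, 19.9% of all tested genes were called higher and 12.7% lower. Sod3, the extracellular superoxide dismutase, rose by 1.58 ± 0.17, from 81.0 to 135 in naive muscle to 225 to 513 in uncast muscle without overlap, whereas Sod2, the mitochondrial form, fell by 0.45 on the log2 scale.

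Of 14 endothelial genes 4 rose and 1 fell, not far from the 19.9% higher and 12.7% lower of all tested genes, with Cdh5, vascular cadherin, at 0.79 ± 0.12 and Vwf, von Willebrand factor, at 0.63 ± 0.10. Of 7 Schwann cell genes 3 rose and 0 fell. Among genes of growth signalling, 6 of 23 rose and 3 fell, again not far from the shares of all tested genes. Fst, the activin and myostatin antagonist follistatin, stood at 0.83 ± 0.15 and Acvr2b, their receptor, at −0.73 ± 0.10.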
